A study of Mus musculus with 20 samples.

Results

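The 9 genes described here, Drd1, Tac1, Drd2, Adora2a, Penk, Ppp1r1b, Rgs9, Pde10a and Scn4b, are genes of striatal projection neurons and of dopamine receptors. They were taken by symbol from 17442 genes listed for mouse frontal cortex and 17586 listed for hippocampus, and all 9 were listed and tested in both regions. They had been selected on measured values, since earlier results of the same data showed them high in cortex against hippocampus and varying together between cortex libraries, so both patterns are given as descriptions with no test. The study sequenced total RNA of mice of the C57Bl6/J strain background that were Ncs1-/- (KO) or Ncs1+/+ (WT). The protein of Ncs1, neuronal calcium sensor 1, binds calcium in neurons. The 20 libraries fall into 4 groups of 5, KO cortex, WT cortex, KO hippocampus and WT hippocampus. The labels used here give neither the age of the mice nor which part of Ncs1 the allele removes, and name no striatal sample.

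Projection neurons of the striatum are inhibitory cells that receive dopamine. In textbook accounts they form a direct-pathway class, which carries the dopamine D1 receptor (Drd1) and makes substance P from Tac1, and an indirect-pathway class, which carries the D2 receptor (Drd2) and the striatal adenosine receptor gene Adora2a and makes enkephalin from Penk. Both classes share signalling proteins downstream of the receptors, among them DARPP-32 (Ppp1r1b), RGS9 (Rgs9) and the phosphodiesterase PDE10A (Pde10a), and the sodium channel subunit beta 4 (Scn4b). In bulk tissue fewer cells of a type and less RNA per cell cannot be told apart.

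Total counts ranged from 16.6 M to 34.6 M per library. Levels are in CPM, the count per 1 M counts of a library, after TMM scaling, a correction for library composition. The targeted gene was lower in every KO library, as Ncs1 averaged 257 ± 3.88 CPM in KO cortex and 365 ± 17.4 CPM in WT cortex, and 303 ± 19.6 CPM in KO hippocampus and 442 ± 16.2 CPM in WT hippocampus (SD, n = 5 each). Cortical layer genes summed to between 1110 and 1261 CPM in cortex libraries and to between 657 and 810 CPM in hippocampus libraries, and markers of hippocampal neurons to between 143 and 209 CPM in cortex libraries and to between 482 and 762 CPM in hippocampus libraries. Library names carry lane 2 for every cortex library and lane 1 for every hippocampus library, so region and lane cannot be told apart. Whether the 5 libraries of a group are 5 animals is not labelled, and the p-values then measure only how these samples spread, which may be technical.

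The upstream sequences of 4 members are shown because the members varied together between cortex libraries while lying on 7 chromosomes. RefSeq start sites on GRCm38.p6 were found for 6 of the 9, namely Drd1, Tac1, Drd2, Rgs9, Pde10a and Scn4b. Each window holds the 250 bases before a start site, read on the gene's strand from 5′ to 3′. The bases after the start site were found in a GENCODE transcript of the same strand for Drd1 and Tac1 but not for Drd2 and Rgs9, whose GENCODE models start further into the gene. The GENCODE models of Drd1 and Tac1 start inside the windows, at 54055705 and 7554879. Part of the Drd1 window and most of the Tac1 window thus lie within the GENCODE gene. Drd1 (chr13:54055659-54055908, minus strand) and Drd2 (chr9:49340153-49340402, plus strand) stand for the receptors of both pathways, Tac1 (chr6:7554811-7555060, plus strand) for the peptides and Rgs9 (chr11:109298182-109298431, minus strand) for the signalling proteins. Capitals mark 4 motifs searched on both strands, the cAMP response element TGACGTCA, its half-site TGACG or CGTCA, which the full element contains, the TATA box TATAAA or TTTATA, and the GC box GGGCGG or CCGCCC.
Drd1: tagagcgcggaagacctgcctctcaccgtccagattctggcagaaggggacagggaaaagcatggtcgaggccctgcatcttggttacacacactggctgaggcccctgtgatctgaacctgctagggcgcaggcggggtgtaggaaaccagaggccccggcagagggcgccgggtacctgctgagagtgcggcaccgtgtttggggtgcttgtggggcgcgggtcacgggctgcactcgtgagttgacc
Drd2: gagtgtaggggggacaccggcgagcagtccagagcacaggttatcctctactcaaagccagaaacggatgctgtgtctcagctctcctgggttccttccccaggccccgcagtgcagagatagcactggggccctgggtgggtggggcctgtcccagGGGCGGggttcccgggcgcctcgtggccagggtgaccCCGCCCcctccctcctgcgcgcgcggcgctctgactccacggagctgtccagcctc
Tac1: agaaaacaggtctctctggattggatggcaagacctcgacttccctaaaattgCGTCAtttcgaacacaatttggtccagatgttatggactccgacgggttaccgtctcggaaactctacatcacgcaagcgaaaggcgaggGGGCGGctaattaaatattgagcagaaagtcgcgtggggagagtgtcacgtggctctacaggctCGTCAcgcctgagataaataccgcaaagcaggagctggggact
Rgs9: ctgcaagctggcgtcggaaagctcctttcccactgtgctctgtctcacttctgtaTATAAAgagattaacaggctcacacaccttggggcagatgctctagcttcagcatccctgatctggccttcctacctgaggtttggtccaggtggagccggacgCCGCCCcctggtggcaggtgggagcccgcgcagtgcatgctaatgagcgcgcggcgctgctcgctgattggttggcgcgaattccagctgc

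No motif was found in all 4 windows. The Drd1 window held no match and the Drd2 window held 2 GC boxes. The Tac1 window held 2 half-sites, at 197 and 43 bases upstream of the RefSeq start site, and 1 GC box. Of these, the half-site at 43 bases and the GC box lie within the GENCODE model of Tac1. The Rgs9 window held 1 TATA box at 195 bases upstream and 1 GC box. Of 32851 RefSeq promoter windows cut in the same way, 1.55% held the full cAMP response element, 17.8% a half-site, 12.4% a TATA box and 32.7% a GC box. Drd1 has a second RefSeq start site further into the gene, whose window held 1 GC box. These matches describe letters in short windows and were not set against the expression values.

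The receptors of the direct and indirect pathways were the members with the lowest mean levels per kilobase of exon in hippocampus. Drd1 lies on chromosome 13 (mm10, 54051184 to 54055659, minus strand, as deposited) and encodes the D1 receptor, which raises cAMP. Drd1 stood at 68.6, 47.7, 65.2, 81.1 and 58.3 CPM in KO cortex libraries 1 to 5, and at 44.6, 61.95, 39.7, 59.2 and 69.1 CPM in WT cortex libraries 1 to 5. In hippocampus Drd1 stood at 4.19, 5.99, 4.79, 5.03 and 6.36 CPM in KO libraries and at 6.18, 7.17, 3.83, 3.90 and 5.86 CPM in WT libraries. Every cortex library lay far above every hippocampus library, and the genotypes overlapped in both regions. The cortex level of Drd1 was 12.3-fold the hippocampus level in KO mice (log2 fold change 3.62, SE 0.20) and 10.3-fold in WT mice (3.37, SE 0.20).

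Drd2 (chromosome 9, 49340403 to 49408169, plus strand) encodes the D2 receptor, which lowers cAMP. Drd2 stood at 34.0, 19.0, 24.3, 40.01 and 26.0 CPM in KO cortex libraries 1 to 5, and at 22.0, 23.9, 19.1, 27.9 and 31.8 CPM in WT cortex libraries 1 to 5. In hippocampus Drd2 stood at 2.77, 2.29, 2.52, 4.96 and 1.45 CPM in KO libraries and at 1.98, 2.15, 2.47, 2.53 and 2.42 CPM in WT libraries. The KO hippocampus libraries held both the highest and the lowest Drd2 level of that region, on 50 to 126 counts. Cortex over hippocampus, Drd2 was 10.5-fold in KO mice and 10.8-fold in WT mice. Drd1 over Drd2 within a library varied little in cortex, at 2.30 ± 0.294 in KO and 2.20 ± 0.227 in WT (SD, n = 5 each), with a range of 2.02 to 2.68 over the 10 libraries. In hippocampus the same ratio ranged from 1.02 to 4.38.

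Adora2a (chromosome 10, 75316877 to 75334793, plus strand) encodes the adenosine receptor of the indirect pathway and had the largest difference between regions. Adora2a stood at 47.4, 21.5, 34.9, 50.5 and 39.2 CPM in KO cortex libraries 1 to 5, and at 33.5, 36.1, 24.2, 35.6 and 37.1 CPM in WT cortex libraries 1 to 5. In hippocampus Adora2a stood at 1.19, 1.34, 1.47, 1.34 and 0.929 CPM in KO libraries and at 1.11, 1.41, 1.59, 1.79 and 1.43 CPM in WT libraries. These hippocampus values rest on 23 to 46 counts per library. The cortex level was 31.7-fold the hippocampus level in KO mice (log2 fold change 4.98, SE 0.22) and 22.6-fold in WT mice (4.50, SE 0.22).

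The other dopamine receptor genes did not share the cortex level of Drd1 and Drd2. Drd5, which encodes another receptor of the D1 class, averaged 2.75 ± 0.375 CPM in KO cortex and 15.8 ± 1.03 CPM in KO hippocampus, and 2.97 ± 0.685 CPM in WT cortex and 17.6 ± 3.47 CPM in WT hippocampus (SD, n = 5 each). Drd5 was thus lower in cortex, with a log2 fold change of -2.49 in KO mice (SE 0.15, edgeR quasi-likelihood test, Benjamini-Hochberg adjusted p = 6.08e-12) and of -2.54 in WT mice (SE 0.14, adjusted p = 3.09e-12). Over all 15310 genes fitted in both regions 21.6% were called lower in cortex in KO mice and 20.4% in WT mice. Drd3 and Drd4, both of the D2 class, were too low to be tested. Drd3 had 5, 18, 7, 5 and 4 counts in KO cortex libraries and 0, 21, 2, 19 and 9 counts in WT cortex libraries, and at most 5 counts in a hippocampus library. Drd4 had at most 6 counts in any library.

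The peptide precursor genes Tac1 and Penk were likewise higher in every cortex library than in every hippocampus library. Tac1 (chromosome 6, 7555061 to 7562979, plus strand), the precursor of substance P, stood at 44.7, 35.2, 37.4, 42.8 and 31.4 CPM in KO cortex libraries 1 to 5, and at 20.7, 40.99, 21.9, 38.2 and 43.5 CPM in WT cortex libraries 1 to 5. WT cortex libraries 1 and 3 lay below the other 8, which were all at 31.4 CPM or above. In hippocampus Tac1 ranged from 4.54 to 6.06 CPM in KO libraries (median 5.68) and from 4.44 to 6.91 CPM in WT libraries (median 5.32). Cortex over hippocampus, Tac1 was 7.27-fold in KO mice and 5.97-fold in WT mice.

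Penk (chromosome 4, 4133536 to 4138816, minus strand), the precursor of enkephalin, stood at 219, 142, 195, 260.3 and 178 CPM in KO cortex libraries 1 to 5, and at 150.5, 205, 109, 201 and 226 CPM in WT cortex libraries 1 to 5. In hippocampus Penk stood at 26.4, 18.6, 18.9, 27.1 and 19.7 CPM in KO libraries and at 20.6, 21.0, 25.7, 18.9 and 23.1 CPM in WT libraries. Penk was 9.10-fold higher in cortex in KO mice and 8.22-fold in WT mice. Tac1 over Penk within a library averaged 0.197 ± 0.032 in KO cortex and 0.184 ± 0.027 in WT cortex, and 0.245 ± 0.036 in KO hippocampus and 0.258 ± 0.048 in WT hippocampus (SD, n = 5 each). Prodynorphin (Pdyn), the opioid peptide gene of the direct pathway and no member, averaged 41.7 ± 4.86 CPM in KO cortex and 43.2 ± 8.03 CPM in WT cortex, and 11.5 ± 0.927 CPM in KO hippocampus and 11.98 ± 1.33 CPM in WT hippocampus (SD, n = 5 each).

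Among the shared signalling proteins, Ppp1r1b (chromosome 11, 98348406 to 98357797, plus strand) encodes DARPP-32, a regulator of protein phosphatase 1. It stood at 285, 185, 242, 305 and 269 CPM in KO cortex libraries 1 to 5, and at 203, 227, 205, 267 and 277 CPM in WT cortex libraries 1 to 5. In hippocampus Ppp1r1b stood at 38.9, 72.0, 31.5, 37.8 and 33.1 CPM in KO libraries and at 45.9, 34.8, 39.9, 59.8 and 35.3 CPM in WT libraries, so that KO library 2 stood apart. Ppp1r1b was 6.13-fold higher in cortex in KO mice and 5.51-fold in WT mice. A listed gene on the other strand, 1700003D09Rik, overlaps it, and no source used here states whether strand was used in counting, so reads of the pair may be mixed. The same holds for Penk, which overlaps A830012C17Rik on the other strand in GENCODE, and for Pde10a, which overlaps Gm15425, Gm17087 and Gm15426.

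Rgs9 (chromosome 11, 109225355 to 109298182, minus strand) encodes a regulator that ends G-protein signalling and had the widest spread of the members in cortex. It stood at 94.8, 96.1, 109, 127 and 105 CPM in KO cortex libraries 1 to 5, and at 46.1, 81.2, 49.5, 77.2 and 127 CPM in WT cortex libraries 1 to 5. In hippocampus it stood at 15.1, 16.2, 22.3, 17.0 and 18.9 CPM in KO libraries and at 15.6, 15.2, 11.7, 15.7 and 17.5 CPM in WT libraries. Of the WT cortex libraries 4 lay below every KO cortex library and WT library 5 lay at the top with KO library 4, so the genotypes overlapped through 1 library. Rgs9 was 6.04-fold higher in cortex in KO mice and 5.07-fold in WT mice. Without WT cortex library 5 the log2 fold change between regions in WT mice was 2.08, against 2.34 with it.

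Pde10a (chromosome 17, 8526801 to 8986649, plus strand) encodes a phosphodiesterase that breaks down cAMP and cGMP. It stood at 344, 221, 288, 446 and 289 CPM in KO cortex libraries 1 to 5, and at 196, 267, 183, 262 and 342 CPM in WT cortex libraries 1 to 5. In hippocampus it stood at 75.2, 91.6, 107, 105 and 96.2 CPM in KO libraries and at 61.1, 82.9, 90.5, 99.7 and 97.9 CPM in WT libraries. Pde10a had the smallest difference between regions of the 9, at 3.40-fold in KO mice and 2.92-fold in WT mice. Scn4b (chromosome 9, 45138624 to 45154157, plus strand), the beta 4 subunit of voltage-gated sodium channels, stood at 331, 231, 288, 343 and 304 CPM in KO cortex libraries 1 to 5, and at 227, 276, 272, 273 and 331 CPM in WT cortex libraries 1 to 5. In hippocampus it ranged from 22.2 to 28.6 CPM in KO libraries (median 24.96) and from 21.2 to 30.8 CPM in WT libraries (median 25.5). Scn4b was 11.97-fold higher in cortex in KO mice and 10.9-fold in WT mice, and it had the narrowest spread of the members in cortex.

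**Figure D1:**
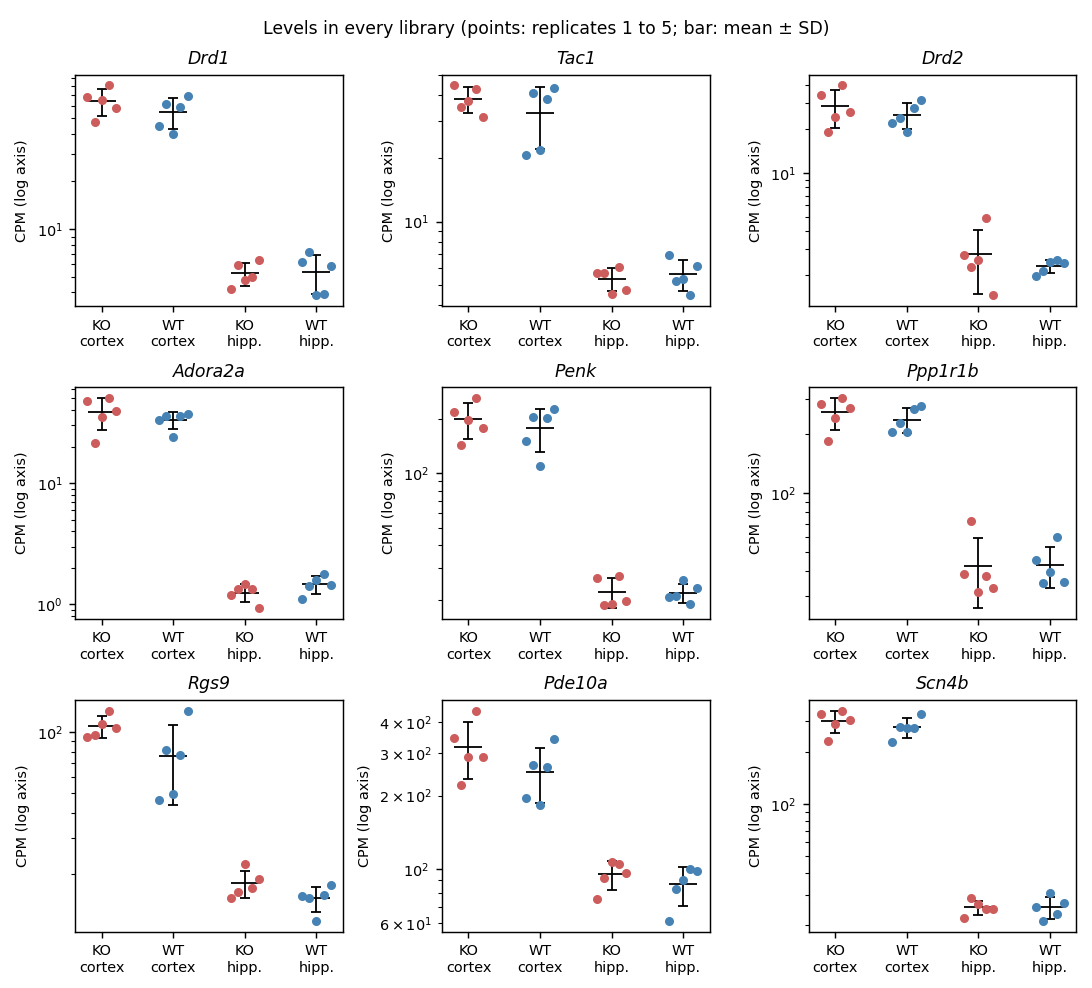
CPM (log axis) of each of the 9 genes in every library, with KO cortex, WT cortex, KO hippocampus and WT hippocampus from left to right, points for replicates 1 to 5 and bars for the mean ± SD. For each gene the 10 cortex points lie above the 10 hippocampus points, while KO and WT points overlap within a region.

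All 9 members had every cortex library above every hippocampus library, in KO mice and in WT mice. Over all genes this held for 14.6% in KO mice and 14.2% in WT mice, and nothing is read from the members' count because the region difference was used to choose them. The median log2 fold change of the 9, cortex over hippocampus, was 3.19 in KO mice and 3.04 in WT mice, against medians of -0.018 and -0.021 over all 15310 genes. The members with the smallest and the largest difference were Pde10a and Adora2a in both genotypes.

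Levels per kilobase of exon, with lengths from GENCODE, allow the genes to be ordered. In KO cortex the means in CPM per kilobase were 122 for Penk, 87.8 for Ppp1r1b, 60.1 for Scn4b, 24.7 for Pde10a, 17.7 for Drd1, 16.6 for Rgs9, 12.6 for Adora2a, 11.27 for Tac1 and 11.25 for Drd2. In WT cortex they were 109 for Penk, 80.6 for Ppp1r1b, 55.3 for Scn4b, 19.5 for Pde10a, 15.1 for Drd1, 11.9 for Rgs9, 10.9 for Adora2a, 9.80 for Drd2 and 9.73 for Tac1. The ranges of Scn4b and Pde10a were separate in both genotypes and those of Ppp1r1b and Scn4b in WT, while all other neighbours in the cortex order overlapped. In hippocampus Ppp1r1b and Penk led with overlapping ranges, at 14.6 and 13.6 CPM per kilobase in KO and 14.7 and 13.4 in WT. Adora2a came last, at 0.409 CPM per kilobase in KO hippocampus and 0.479 in WT hippocampus, with its range separate from that of Drd2, the next above it.

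The members varied together between cortex libraries of the same genotype. With the mean of each genotype taken off the log2 CPM, all 36 pairs of members had a Pearson r above 0 over the 10 cortex libraries, with a median of 0.83 (median Spearman rho 0.867) and 23 pairs at 0.8 or above. The highest pair was Drd1 with Penk (r = 0.98), a direct-pathway gene with an indirect-pathway gene, and the lowest was Adora2a with Rgs9 (r = 0.416). Without the 2 libraries farthest from the median, KO cortex 2 and WT cortex 3, the median r was 0.832. The points share their libraries and the members were picked for this pattern, so no p is given.

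In hippocampus the same 36 pairs had a median r of -0.02 and a range of -0.602 to 0.645, with 17 pairs above 0 and 0 pairs at 0.8 or above. The median rho was -0.0545. Without the 2 libraries farthest from the median the median r was -0.0609. The co-variation between cortex libraries was used to choose the members, and the difference between regions in co-variation was not tested. Counts per library were lower in hippocampus, from 23 to 46 for Adora2a to 1265 to 3315 for Pde10a, and their part in this was not tested.

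**Figure D2:**
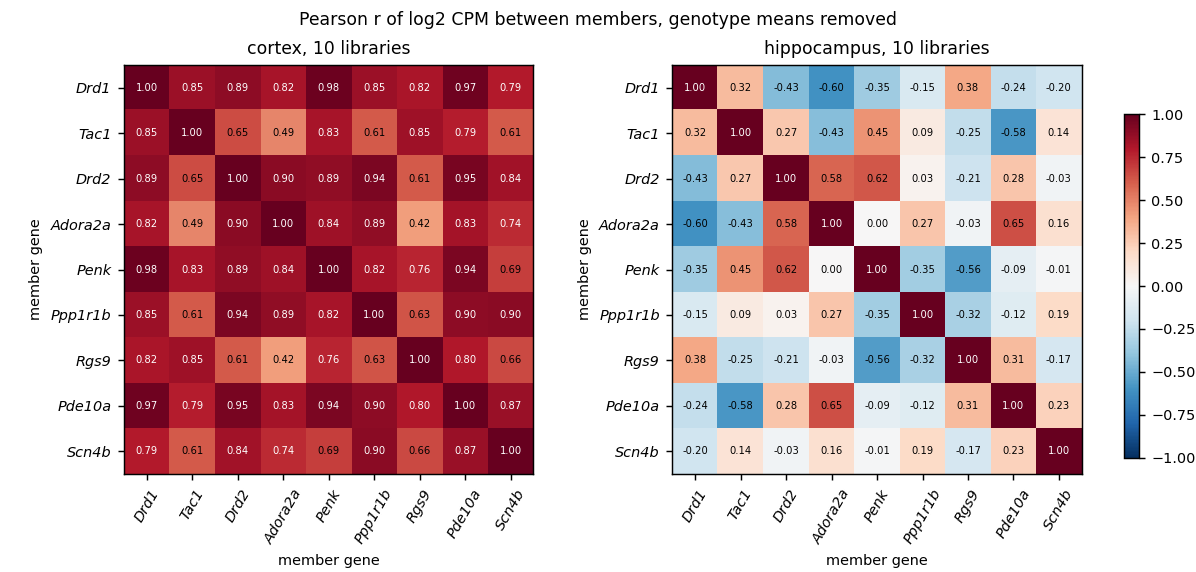
Pearson r of log2 CPM between the 9 genes over 10 libraries of cortex (left) and 10 of hippocampus (right), with genotype means removed and each cell giving the r of 1 pair. In cortex every pair is above 0, with a lowest value of 0.416, while hippocampus pairs range from -0.602 to 0.645.

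Some cortex libraries were high, and others low, across most of the members. KO cortex 4 had the highest level of 10 for 7 of the 9 members and was among the top 3 for all 9, and KO cortex 1 and WT cortex 5 were among the top 3 for 8 each. WT cortex 1 and WT cortex 3 were among the lowest 3 for all 9 members, and KO cortex 2 for 7, the exceptions being Rgs9 and Tac1. The lowest library of 10 was WT cortex 1, WT cortex 3 or KO cortex 2 for every member, 3 members each. High and low libraries thus occurred in both genotypes. No hippocampus library was among the top 3 for more than 4 members or among the lowest 3 for more than 5.

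**Figure D3:**
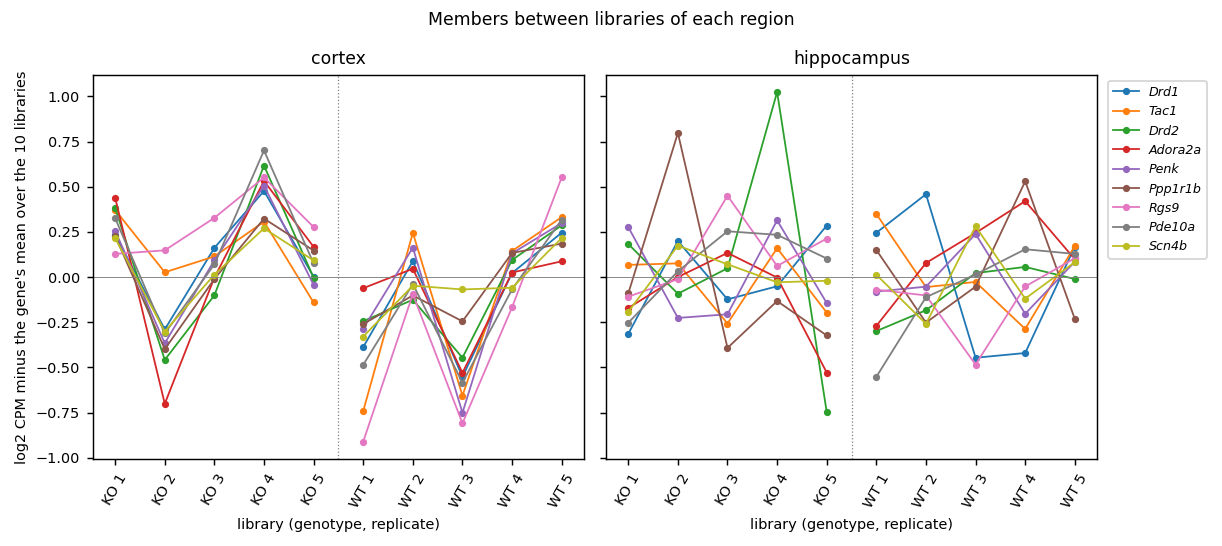
Log2 CPM of each of the 9 genes minus its mean over the 10 libraries of a region, by library, with KO libraries left of WT libraries in cortex (left) and hippocampus (right). Most of the 9 lines run together in cortex, high in KO 1, KO 4 and WT 5 and low in KO 2, WT 1 and WT 3. They cross in hippocampus.

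Members differed in how closely they followed the rest. The r of a member with the mean z score (level minus mean, over SD) of the other 8 in cortex was 0.985 for Pde10a, 0.974 for Drd1, 0.938 for Penk, 0.927 for Drd2, 0.905 for Ppp1r1b, 0.839 for Scn4b, 0.813 for Adora2a, 0.773 for Tac1 and 0.753 for Rgs9. Direct- and indirect-pathway genes were thus mixed in this order. In hippocampus these values lay between -0.4 for Drd1 and 0.477 for Drd2. The size of the swing also differed, as the highest cortex library was 2.76 times the lowest for Rgs9, 2.44 times for Pde10a, 2.39 times for Penk, 2.35 times for Adora2a, 2.16 times for Tac1, 2.11 times for Drd2, 2.04 times for Drd1, 1.65 times for Ppp1r1b and 1.51 times for Scn4b.

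Rgs9 and Adora2a parted most in KO cortex library 2, where Adora2a had its lowest cortex level of 21.5 CPM and Rgs9 stood at 96.1 CPM. Rgs9 over Adora2a within a library was 2.96 ± 0.936 in KO cortex and 2.25 ± 0.739 in WT cortex (SD, n = 5 each), with the highest value of 4.47 in KO cortex 2 and the lowest of 1.38 in WT cortex 1. In hippocampus the ratio was 14.6 ± 3.43 in KO and 10.6 ± 2.65 in WT (SD, n = 5 each).

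Outside the members, a list of 26 other striatal genes followed the same cortex libraries. Of its 25 genes tested in cortex, all 25 had an r above 0 with the mean z score of the members, with a median of 0.866 and a range of 0.177 to 0.967. Over 11480 cortex genes that averaged 5 CPM or more the median r was 0.00092 and the upper 2.5% began at 0.685, which 18 of the 25 exceeded. The mean z score of the list had an r of 0.985 and a rho of 0.976 with that of the members. In hippocampus 10 of 21 tested genes of the list had an r above 0, with a median of -0.00625. The list was drawn up with earlier results of these data known.

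Among all cortex genes at 5 CPM or more, the most like the members were Pde1b (r = 0.967), a calcium-dependent phosphodiesterase, Adcy5 (0.965), the main adenylyl cyclase of striatal neurons, Gpr52 (0.953) and Gpr6 (0.937), receptors known from indirect-pathway neurons, Itgb1 (0.941), Tacr1 (0.935), the receptor of substance P, Gskip (0.933) and Pou3f4 (0.93). Their rho lay between 0.855 for Gskip and 0.964 for Gpr52. Of these 8, Pde1b, Adcy5, Gpr52 and Gpr6 were on the list of other striatal genes. The members were picked for this co-variation and the list was drawn up with earlier results known, so nothing is read from the overlap. In hippocampus the genes most like the members were Serinc2 (r = 0.945), Pknox1 (0.908), Rundc1 (0.896), Zbtb40 (0.874), Arap3 (0.871), Sp9 (0.868), Col15a1 (0.861) and Nfasc (0.852). Values of this size therefore also occurred at the top of the hippocampus table, where the members did not vary together.

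The other striatal genes also differed between regions. In KO mice 22 of 25 were called higher in cortex and 2 lower, and in WT mice 20 and 2 (edgeR quasi-likelihood test, Benjamini-Hochberg adjusted p under 0.05). Over all genes 20.1% were called higher in KO mice and 19.3% in WT mice. Ido1, Isl1, Sh3rf2 and Six3 were tested in cortex but not in the hippocampus fit, so they entered through the region where they are high. The list was also drawn up with earlier results of these data known, so nothing is read from these counts. Pdyn had a log2 fold change of 1.88 in KO mice and 1.86 in WT mice. The 2 lower genes in both genotypes were Bcl11b, a transcription factor also found in deep cortical layers and hippocampus, at -0.45 in KO mice and -0.56 in WT mice, and Kcnip2, a potassium channel partner, at -0.40 in KO mice and -0.42 in WT mice. Chrm4, the muscarinic M4 receptor, was higher in cortex (0.96 in KO mice, 0.83 in WT mice) but had an r of only 0.177 with the members.

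**Figure D4:**
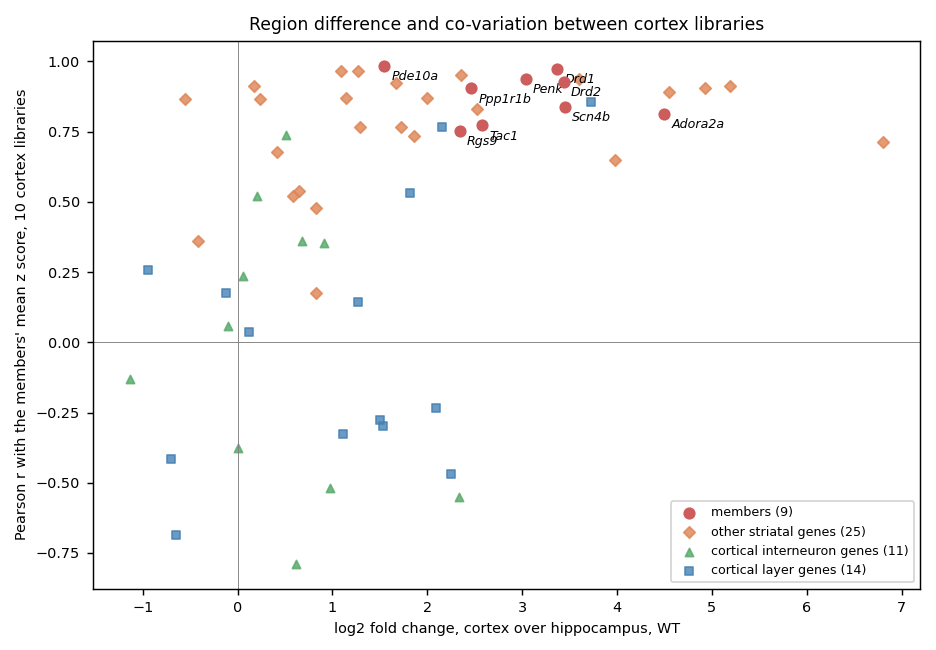
Log2 fold change of cortex over hippocampus in WT mice (x axis) against the Pearson r with the mean z score of the members over 10 cortex libraries (y axis), with members set against the mean of the other 8. Members and most other striatal genes lie at the upper right, while cortical layer and interneuron genes spread over r values from -0.788 to 0.856.

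Markers of other cell types were set beside the members' swing in cortex. The mean z score of 14 cortical layer genes had an r of 0.0136 with that of the members, and that of 11 interneuron genes -0.0161. Single genes spread widely around these values. Layer genes ran from -0.687 for Etv1 to 0.856 for Foxp2, and interneuron genes from -0.788 for Pvalb to 0.738 for Gad2. Of the layer genes 2, and of the interneuron genes 1, exceeded 0.685, where the upper 2.5% of all cortex genes began. Etv1 and Pvalb lay below -0.659, under which the lowest 2.5% fell. Oligodendrocyte genes ran the other way, with an r of -0.367 and 0 of 6 genes above 0. Markers of cholinergic neurons, a cell type of the striatum and basal forebrain, had an r of 0.535, with 7 of 7 tested genes above 0. The summed level of these 8 cholinergic genes ranged from 22.0 to 42.9 CPM in KO cortex and from 11.3 to 46.6 CPM in WT cortex, with Gbx1 under 1 CPM. In hippocampus 6 of the 8 were listed, without Lhx8 and Gbx1, and summed to between 2.23 and 5.83 CPM in KO libraries and between 3.28 and 3.83 CPM in WT libraries. Chat, the acetylcholine-making enzyme, averaged 3.59 ± 0.723 CPM in KO cortex and 2.35 ± 1.69 CPM in WT cortex (SD, n = 5 each). Their part in the members' swing was not tested.

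For the other cell type lists the r of the list means in cortex was 0.524 for dopamine neuron genes and 0.352 for choroid plexus and ependyma genes. It was 0.252 for septal and olfactory tubercle genes, 0.235 for astrocyte genes and 0.231 for hippocampal neuron genes. For microglia genes it was 0.127 and for thalamic neuron genes 0.076. Of the dopamine neuron genes, the dopamine transporter gene Slc6a3 was under 1 CPM, and En1 and Pitx3 were not listed. Single dopamine neuron genes followed less closely than their mean, with a median r of 0.113, a highest of 0.443 and 3 of 5 tested genes above 0. Among the cell type lists compared, the other striatal genes had the highest r with the members. The members were picked for this co-variation, and that list was drawn up with earlier results of these data known. Nothing is therefore read from its place among the lists. How much RNA of striatal cells each cortex library held was not measured apart from these genes.

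Genotype differences of the members in cortex were small against the spread between libraries, and none was called. The study's question was how loss of Ncs1 changes expression in each region. In cortex 0 of 9 members passed an adjusted p of 0.05 in edgeR's quasi-likelihood test, 0 of 9 had an unadjusted p under 0.05, and DESeq2 and limma-voom each called 0 of 9. Over all 14823 cortex genes tested 0.054% were called and 14.4% had an unadjusted p under 0.05. Ncs1 itself was among the 8 genes called (log2 fold change -0.51, SE 0.04, edgeR adjusted p = 5.55e-06).

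All 9 members had a cortex log2 fold change above 0, KO over WT, with a median of 0.21 and a range of 0.12 to 0.48. Over all cortex genes 50.6% were above 0 and the median was 0.00186. The largest difference was in Rgs9, at 106 ± 13.0 CPM in KO cortex and 76.2 ± 32.5 CPM in WT cortex (SD, n = 5 each). Its log2 fold change was 0.48 (SE 0.27, edgeR adjusted p = 0.447), and 2 SE either side ran from -0.06 to 1.03. Over the 10 fits that left out 1 library this value ran from 0.35 without WT library 1 to 0.744 without WT library 5, and stayed short of the threshold in each.

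The next was Pde10a, at 318 ± 84.0 CPM in KO cortex and 250 ± 63.9 CPM in WT cortex (log2 fold change 0.35, SE 0.23, edgeR adjusted p = 0.512). Drd1 averaged 64.2 ± 12.4 CPM in KO cortex and 54.9 ± 12.3 CPM in WT cortex, with a log2 fold change of 0.23 (SE 0.18, edgeR adjusted p = 0.597). Adora2a averaged 38.7 ± 11.5 CPM in KO cortex and 33.3 ± 5.25 CPM in WT cortex, with a log2 fold change of 0.22 (SE 0.22). Tac1 differed by 0.21 (SE 0.23), at 38.3 ± 5.47 CPM in KO and 33.1 ± 10.9 CPM in WT cortex, and Drd2 by 0.20 (SE 0.21), at 28.7 ± 8.32 CPM in KO and 24.9 ± 4.97 CPM in WT cortex (SD, n = 5 each). The intervals of 2 SE for these genes all crossed 0.

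Penk, Ppp1r1b and Scn4b differed least. Penk averaged 199 ± 44.2 CPM in KO cortex and 178 ± 47.6 CPM in WT cortex (log2 fold change 0.16, SE 0.23), Ppp1r1b 257 ± 46.6 CPM in KO cortex and 236 ± 34.3 CPM in WT cortex (0.12, SE 0.14), and Scn4b 299 ± 44.0 CPM in KO cortex and 276 ± 37.0 CPM in WT cortex (0.12, SE 0.12; SD, n = 5 each). For Scn4b, the most narrowly bounded, 2 SE either side ran from -0.12 to 0.36. In no member did all KO cortex libraries lie above or below all WT cortex libraries, while over all cortex genes 0.978% lay above and 1.17% below.

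Because the members varied together, their genotype differences were not independent of each other. The median of the 9 ran from 0.102 without KO cortex library 4 to 0.317 without KO cortex library 2. A fit with the mean z score of the other striatal genes as a covariate, chosen after the data were seen, gave a median of -0.017 with 4 of 9 members above 0 and 0 called. That score had an r of 0.985 with the mean of the members, so the fit takes off their shared variation by construction, and nothing about genotype is read from it.

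**Figure D5:**
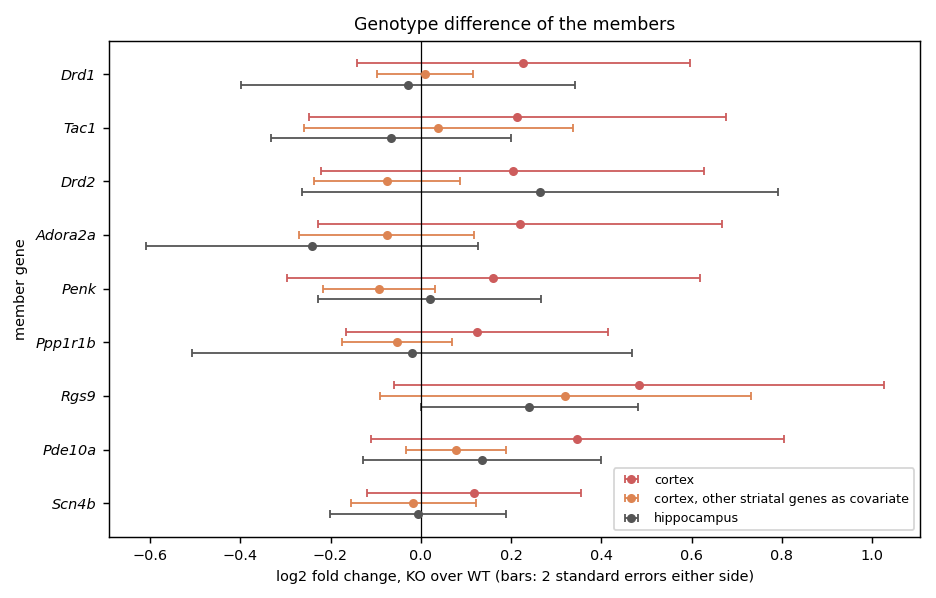
Log2 fold change of KO over WT for each of the 9 genes in cortex, in cortex with the other striatal genes as a covariate, and in hippocampus, with bars of 2 standard errors either side. The cortex values lie between 0.12 and 0.48 with bars that cross 0. The covariate had an r of 0.985 with the mean of the members, so smaller values with it follow from its construction.

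In hippocampus the members went both ways between genotypes, with 4 above 0, 5 below and a median log2 fold change of -0.00672. Over all hippocampus genes 53.1% were above 0 and the median was 0.00698. edgeR's quasi-likelihood test called 0 of 9 members, 0 had an unadjusted p under 0.05, and DESeq2 and limma-voom called 0 of 9. Of 15042 hippocampus genes tested 0.0266% were called and 3.7% had an unadjusted p under 0.05. Drd2 had the largest positive value, 0.26 (SE 0.26), at 2.80 ± 1.30 CPM in KO hippocampus and 2.31 ± 0.237 CPM in WT hippocampus. Without KO hippocampus library 4 it was -0.041. Adora2a had the largest negative value, -0.24 (SE 0.18), at 1.25 ± 0.207 CPM in KO hippocampus and 1.47 ± 0.251 CPM in WT hippocampus (SD, n = 5 each).

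Rgs9 had the smallest p of the members in hippocampus, at 17.9 ± 2.82 CPM in KO and 15.1 ± 2.14 CPM in WT (SD, n = 5 each). Its log2 fold change was 0.24 (SE 0.12, edgeR adjusted p = 0.993), and the genotypes overlapped. Pde10a had 0.14 (SE 0.13), at 95.0 ± 12.8 CPM in KO hippocampus and 86.4 ± 15.6 CPM in WT hippocampus. In 0 of 9 members did all KO hippocampus libraries lie above or below all WT hippocampus libraries, against 0.279% of all genes above and 0.199% below. The other 5, Drd1, Tac1, Penk, Ppp1r1b and Scn4b, lay between -0.07 and 0.02, with standard errors of 0.10 to 0.24.

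The genotype effect in cortex minus that in hippocampus was tested for each gene over the 20 libraries. It was called for 0 of 9 members, and for 0% of 15310 genes, of which 1.39% had an unadjusted p under 0.05, and DESeq2 called 1 gene that was no member. For the members it ran from -0.04 for Drd2 (SE 0.36) to 0.48 for Adora2a (SE 0.33) on the log2 scale, with a median of 0.22 and 8 of 9 above 0, against 50.9% of all genes above 0. Because the members varied together between cortex libraries, these values were not independent of each other. Without KO cortex library 4 the median was 0.0846. The edgeR adjusted p was 0.99978 for every member. A difference between regions in the effect of genotype was thus not detected, and intervals of 2 SE reached from -0.18 to 1.15 for Adora2a and from -0.18 to 0.45 for Scn4b.

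Other genes of the pathways gave no call between genotypes in either region. Of 25 other striatal genes tested in cortex 0 were called and 23 were above 0, with a median log2 fold change of 0.14. Over all cortex genes 0.054% were called and 50.6% were above 0. The mean z score of the list had an r of 0.985 with that of the members, so these differences were not independent of the members' differences. Ido1, which encodes a tryptophan-degrading enzyme, was the 1 gene of the list with an unadjusted p under 0.05 (0.48, SE 0.20, edgeR adjusted p = 0.296). Kcnip2 at -0.01 and Pdyn at -0.05 (SE 0.12) were below 0. In hippocampus 0 of 21 were called, with 9 above 0 and a median of -0.016, against 53.1% of all hippocampus genes above 0.

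Of 23 dopamine and cAMP signalling genes tested in cortex 0 were called between genotypes, 11 were above 0 and the median log2 fold change was -0.017. Gnal, the G-protein subunit that couples striatal D1 and adenosine receptors to adenylyl cyclase, had 0.07 (SE 0.09) and an r of 0.92 with the members, while Gnas, its relative in most other cells, had -0.09 (SE 0.04, edgeR adjusted p = 0.329) and an r of -0.393. Prkaca, a catalytic subunit of protein kinase A, had -0.04 (SE 0.04) and an r of 0.148. Between regions 15 of 23 were called higher in cortex in KO mice and 14 in WT mice, with 5 lower in each. Over all genes 20.1% were called higher in KO mice and 19.3% in WT mice, and 21.6% lower in KO mice and 20.4% in WT mice, so the 5 lower are near the share of all genes. This list too was drawn up with earlier results of these data known, so nothing is read from the counts called higher. Gnal had a log2 fold change, cortex over hippocampus, of 1.17 in KO mice and 1.10 in WT mice. The mean z score of the list had an r of 0.716 with that of the members. Of its tested genes Adcy5, Arpp21, Gng7 and Pde1b also stand on the list of other striatal genes, as do Pdyn of the opioid list and Isl1 of the cholinergic list.

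Of 10 opioid and tachykinin genes besides Penk and Tac1, 0 were called between genotypes in either region, and the mean z score of the list had an r of 0.613 with that of the members in cortex. Oprm1, the mu opioid receptor, had the largest value in cortex (0.44, SE 0.18, edgeR adjusted p = 0.289) and an r of 0.816 with the members, and Oprd1, the delta opioid receptor at which enkephalin acts, had -0.02 (SE 0.07) and an r of 0.187. Tacr1 had 0.18 (SE 0.22). Between regions 6 of 10 were called higher in cortex and 1 lower in both KO and WT mice, against the same shares of all genes as for the list before. Among those higher, Oprk1, the receptor of dynorphin, had a log2 fold change of 2.46 in KO mice and 2.29 in WT mice, Tacr1 of 2.14 in KO mice and 1.98 in WT mice, and Oprd1 of 1.06 in KO mice and 1.16 in WT mice. The 1 lower was Pnoc, the precursor of nociceptin, at -0.44 in KO mice and -0.58 in WT mice. The opioid and tachykinin list was also drawn up with earlier results of these data known, so nothing is read from these counts.

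The 7 cholinergic genes tested in cortex were all above 0 between genotypes, KO over WT, with a median log2 fold change of 0.50 and 0 called. Over all cortex genes 50.6% were above 0 and 0.054% were called. The mean z score of the cholinergic list had an r of 0.535 with that of the members, so these differences were not independent of the members' differences. Chat had 0.61 (SE 0.39, edgeR adjusted p = 0.482) and the transporter gene Slc5a7 0.38 (SE 0.35). These values rest on few counts, 44 to 82 in KO cortex and 18 to 107 in WT cortex for Chat. Cortical layer genes had a median of 0.02, with 8 of 14 above 0, and interneuron genes of -0.14, with 2 of 11 above 0. Thalamic neuron genes had a median of 0.13, with 6 of 7 above 0, and their summed level ranged from 229 to 269 CPM in KO cortex and from 216 to 244 CPM in WT cortex. Choroid plexus and ependyma genes had a median of 0.88, with 3 of 4 tested genes above 0, and their summed level ranged from 12.3 to 247 CPM in KO cortex (median 14.6) and from 8.46 to 16.9 CPM in WT cortex. Septal and olfactory tubercle genes had a median of 0.22 with 3 of 5 above 0, oligodendrocyte genes of 0.02 with 5 of 6 above 0, and hippocampal neuron genes of -0.05 with 2 of 7 above 0. Dopamine neuron genes had a median of -0.02 with 2 of 5 above 0, microglia genes of -0.09 with 1 of 4 above 0, and astrocyte genes of -0.13 with 0 of 4 above 0. The part of these cell types in the members' genotype differences was not tested. No list named here held a gene called between genotypes.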

How the data were processed

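Total RNA (RNeasy Mini kit, according to the labels) of frontal cortex and hippocampus gave 20 libraries, 5 for each genotype in each region. The authors deposited expected counts by gene, 1 table per region, not scaled for depth. STAR 2.7.3a, Partek and build mm10 are named in the submitters' processing notes, and no source used here states the annotation, strand setting or filters. Gene positions are as deposited. For Drd1 and Rgs9 the deposited end lies 1 base past the RefSeq start site.

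After rounding, the expected counts went into edgeR 4.0.16 with R 4.3.3 (filterByExpr, TMM scaling, robust quasi-likelihood tests, Benjamini-Hochberg adjustment at 0.05 over 14823 cortex genes, 15042 hippocampus genes and 15310 genes in the fit of 20 libraries). Genotypes were compared within each region, and the interaction over both. Standard errors were the size of the log2 fold change over the root of F. Co-variation was the Pearson r of log2 CPM (prior count 2) with genotype means removed. Exonic lengths came from GENCODE vM21 and promoter windows from a RefSeq table. The methods were tested on simulated counts. Alternatives were other scalings, no filter, DESeq2 1.42.0, limma 3.58.1 (voom), a replicate block, all libraries in 1 fit and each library left out. The covariate fit, the fit without robust moderation, the fit with genotype and number as 1 mouse and the removal of the 2 farthest libraries were chosen after the data were seen. No library pair within a group agreed within sampling noise (lowest chi-square per degree of freedom 3.45).

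The members, the lists and the rule for named genes were chosen with earlier results of these data known. The rule named the members, Ncs1, Drd3 to Drd5, Pdyn, list genes that passed between genotypes, and the 8 genes most like the members per region. Other list genes were named after their values were seen. The 9 named members were used.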

Additional observations from a re-analysis of the deposited data

Results flagged for a closer look

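In each group of 5 libraries the gap between the most extreme library and its nearest neighbour was compared with the range of the group, for 36 combinations of member and group. Chance flags about 1 in 20 such groups, and 2 were flagged. Adora2a in WT cortex had its lowest level, 24.2 CPM, in library 3, and the other 4 libraries lay between 33.5 and 37.1 CPM. Library 3 was also among the lowest 3 cortex libraries for the other 8 members. Ppp1r1b in KO hippocampus had its highest level, 72.0 CPM, in library 2, and the other 4 libraries lay between 31.5 and 38.9 CPM. Without that library the log2 fold change of Ppp1r1b in hippocampus, KO over WT, was -0.29, against -0.02 with it, and the difference between regions in KO mice was 2.89, against 2.62 with it.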

How the results depend on the processing

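No member was called under any alternative run. The cortex median of the members, the interaction median, the region medians and the cortex co-variation kept their sign under each alternative, except that the covariate fit put the cortex median at -0.017. The hippocampus median, -0.00672, had no stable sign and was 0.000168 with total-count scaling and 0.0118 with limma-voom. The median log2 fold change of the 9 members, KO over WT, over the fits that left out 1 library ran from 0.102 to 0.317 in cortex, from -0.0525 to 0.0685 in hippocampus and from 0.0846 to 0.351 for the interaction. The median r ran from 0.809 to 0.859 in cortex and from -0.0701 to 0.0406 in hippocampus. Values that changed sign were all small or uncalled, and the cause was not tested. With the covariate, cortex values were -0.0749 for Drd2, -0.0756 for Adora2a, -0.0922 for Penk, -0.0528 for Ppp1r1b and -0.017 for Scn4b. In hippocampus Scn4b was at 0.000168 with total-count scaling and Drd1 at 0.0118 with limma-voom, and limma-voom put the interaction of Drd2 at 0.0775. Leaving out 1 library moved hippocampus values over ranges that cross 0, from -0.128 to 0.0866 for Drd1, -0.041 to 0.434 for Drd2, -0.0659 to 0.0831 for Penk, -0.29 to 0.129 for Ppp1r1b, -0.0745 to 0.0685 for Scn4b and -0.141 to 0.0193 for Tac1, and the interaction of Drd2 from -0.222 to 0.255. Over all cortex genes 8 were called by edgeR, 4 without robust moderation and 169 by DESeq2, none of them a member. With the replicate number as a block the median was 0.187 in cortex, -0.00181 in hippocampus and 0.207 for the interaction, with 0 members called. Same-numbered libraries deviated with an r of -0.0523 to 0.146 in cortex and -0.0141 to 0.306 in hippocampus, and 1 of 5 numbers in cortex and 2 of 5 in hippocampus matched best with itself, so the numbers were not taken to pair the samples. Across regions, libraries of the same genotype and number deviated together with an r over 0.1 in 8 of 10 cases. No value for libraries of different numbers was set beside these, so nothing is read from them. The labels do not say whether a number marks 1 mouse. Treating libraries of the same genotype and number as 1 mouse, an alternative chosen after the data were seen, gave an interaction median of 0.205 with 0 members called, and the region medians were 3.18 in KO mice and 3 in WT mice.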
